A study of Mus musculus with 6 samples.

Results

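The nuclear genome encodes most subunits of the mitochondrial respiratory chain and of ATP synthase. The transcripts of 94 such genes were examined in whole ovaries of mice kept under hypobaric hypoxia and of mice kept at local pressure. Members were rows of the expression table whose symbol begins with Nduf and a, b, c, s or v, with Uqcr, Cox4 to Cox8 or Atp5, or is Sdha to Sdhd, Cyc1 or Cycs. A member also needed at least 1 TPM (transcript abundance per length, scaled to a fixed library total) in at least 3 of the 6 libraries. Of 96 matching symbols, 94 passed, out of 17120 features that passed the same filter and 33036 in the table. Cox8b lay just inside the threshold, with 1.22, 0.81 and 1.42 TPM in hypoxia libraries and 0.99, 1.80 and 2.07 TPM in normal-pressure libraries. The pair outside it was Ndufb4b, with 4.14, 1.41 and 0.00 TPM in hypoxia libraries and 0.64, 0.46 and 0.00 TPM in normal-pressure libraries, and Cox6a2, which stayed at or under 0.34 TPM in all 6.

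Electrons from NADH enter the chain at complex I and electrons from succinate at complex II, and both pass through complex III and cytochrome c to complex IV, which reduces oxygen. Complexes I, III and IV pump protons across the inner mitochondrial membrane, and complex V, the ATP synthase, uses the gradient to make ATP. In the ovary, cells that make steroid hormones, those of the corpus luteum above all, are rich in mitochondria, where the first step of steroid synthesis takes place. Complex II is wholly nuclear-encoded, and each of the others joins core subunits, some of them encoded in mitochondrial DNA, with nuclear-encoded accessory subunits.

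All libraries came from female C57BL/6J mice. The hypobaric hypoxia group lived in a low-pressure chamber set to 6500 m of altitude (43.12 kPa, with 8.1 kPa oxygen), although the sample descriptions give 5000 m. The normal-pressure group lived in Lanzhou, where the titles put the altitude at 1500 m and the series text at 1588 m (83.56 kPa and 17.8 kPa of oxygen). Each group held 15 mice and gave 3 libraries, and which mouse or pool stands behind a library is not stated, so the p-values reflect variation among the 6 libraries alone, part of which may be technical. Mice were 8 weeks old in one label and 6 to 8 in another, and exposure lasted 15 days in the series text but 15, 16 and 17 days in the descriptions of replicates 1, 2 and 3. Cycles in both groups were synchronised with levonorgestrel and ethinylestradiol by gavage, with doses (0.1 and 0.02 mg/kg) labelled for the hypoxia group only, so a difference in dosing could not be told apart from hypoxia. The light cycle reads 12 hours of light throughout, with 12 hours of dark for all hypoxia samples and 12, 13 and 14 hours for normal-pressure replicates 1, 2 and 3. All samples carry batch 1.

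The ovary label was checked against marker genes. Of the listed markers, 13 of 16 oocyte, 12 of 12 granulosa, 7 of 8 theca and interstitial and 14 of 14 luteal genes passed the expression filter. All 6 oviduct markers passed it too, and how much oviduct came with the ovaries was not tested. No listed marker in the table was at 0 in every library. Normal-pressure replicate 2 stood apart. Its protein-coding genes other than the single very abundant feature Zfp949 held 37.6% of TPM, against 42.6% to 46.1% in the other 5 libraries, and its median-ratio scaling factor was 0.851, against 1.02 to 1.06. Results are therefore given with and without it where it moves them. Read depth cannot be recovered from TPM and is unknown for these libraries.

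Respiratory chain transcripts were mostly lower in hypoxia libraries. Summed over the 94 members they came to 9987, 9921 and 9591 TPM in hypoxia libraries and 12040, 10241 and 12338 TPM in normal-pressure libraries, so the groups did not overlap. The difference between hypoxia and normal pressure was below 0 for 86 of the 94 genes, with a median log2 fold change of -0.22 and a range from -1.12 to 0.31. By limma on log2(TPM + 1), with Benjamini-Hochberg adjustment over all features at 0.05, 14 members fell and 0 rose. That is 14.9% of members lower, against a background of 7.2% of all features lower (7.78% of protein-coding ones) and 11.1% higher. At an unadjusted p under 0.05, 38 were lower and 1, Cox6b2, was higher. The share of all features at that unadjusted threshold was not counted, so such counts, here and below, have no background beside them. All features had a median log2 fold change of 0.08. In 41 members all 3 hypoxia libraries lay below all 3 normal-pressure libraries, and in 2 members they lay above. Over all features such separation held for 11.6% in the lower direction and 27.6% in the higher direction.

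The count of falls depended on how libraries were scaled and features filtered, whereas the sign mostly did not. It was 8 without the filter on low values (all 8 among the 14), against a background of 1.65% lower. It was 10 to 12 without any 1 library other than normal-pressure replicate 2, against backgrounds of 4.72% to 7.52%. Without normal-pressure replicate 2, 63 members fell, against a background of 12.6% lower. With all 6 libraries, 73 fell after median-ratio scaling (background 18.3%), 59 after quantile normalization (16.2%) and 35 after scaling to the protein-coding total (9.42%). Leaving Zfp949 out of that total, a choice made after seeing the data, gave 67 (14.9%). The 14 members called with the deposited TPM were called lower under each of these 4 scalings and without normal-pressure replicate 2, and 83 members kept a difference below 0 under every scaling. Of all calls, 60.7% were higher with the deposited TPM, 46.8% after median-ratio scaling and 77.4% after protein-coding scaling.

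Of the 14 members that fell, 8 passed without any 1 of the 6 libraries, namely Cox7a1, Ndufa4, Cox5b, Sdhb, Uqcrq, Uqcr11, Ndufb1-ps and Ndufc2. The other 6 were lost in some fits with 1 library fewer. Ndufa13 was lost without normal-pressure replicate 1, Ndufv3 without hypoxia replicate 2 and Atp5k without normal-pressure replicate 3. Ndufb9 was lost without hypoxia replicate 2 or 3 or normal-pressure replicate 1 or 3, and Uqcrb and Cox6a1 were lost without any 1 library other than normal-pressure replicate 2. The means of the 14 in hypoxia libraries were 44.1% of the normal-pressure mean for Cox7a1 and 63.8% to 76.8% for the others. A further 14 members had an adjusted p between 0.05 and 0.10. Transcripts of the 14 had a median length of 571 nucleotides in GENCODE M21, and those of members that did not pass had 730, with a length known for 90 members. The members lie on 19 chromosomes.

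**Figure D1:**
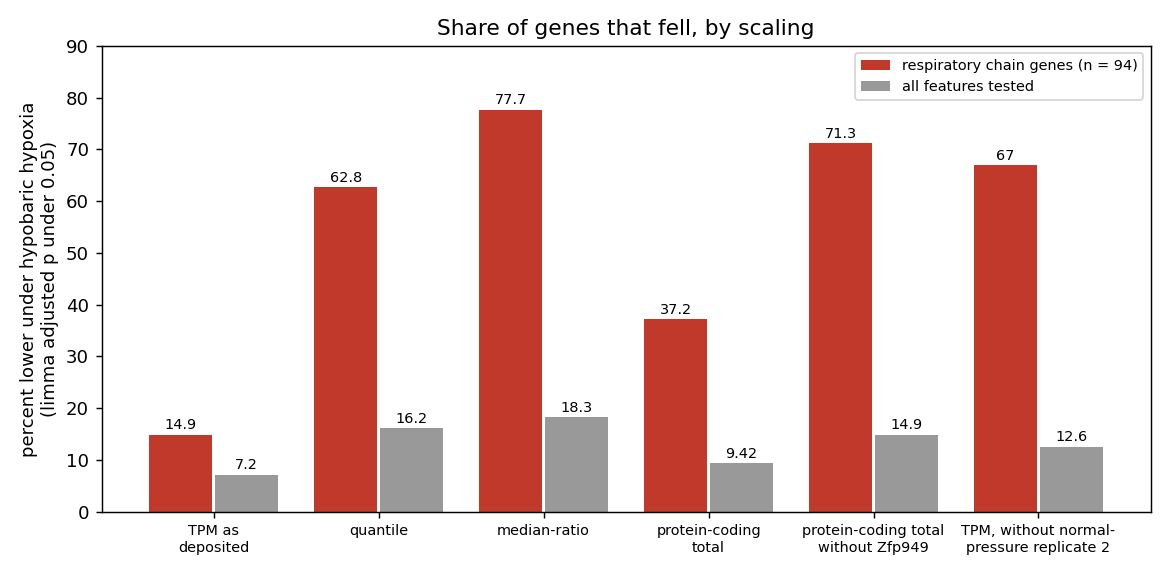
Percent of features called lower in hypoxia libraries (limma, adjusted p under 0.05), for respiratory chain members and for all features tested, under each scaling and without normal-pressure replicate 2. Members run from 14.9% with the deposited TPM to 77.7% after median-ratio scaling, above the share of all features in each setting shown.

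Markers of several cell types moved in the same libraries. Beside the counts below, 7.2% of all features were called lower and 11.1% higher, and a single call in a short list speaks for that gene alone. In bulk tissue, fewer cells of a type and less RNA per cell cannot be told apart. Luteal markers, of the mitochondria-rich corpus luteum, were lower for 13 of 14 genes, and their summed level was 2318 to 3095 TPM in hypoxia libraries and 5685 to 8626 TPM in normal-pressure libraries. Adipocyte markers were lower for 5 of 6 tested, all of them genes of fat cells in general (Cfd, Fabp4, Adipoq, Retn and Plin1), with summed levels over the list of 97.8 to 201 TPM in hypoxia libraries and 252 to 326 TPM in normal-pressure libraries. Of genes typical of brown fat, a tissue that expresses Cox7a1, Cidea averaged 2.10 ± 0.137 TPM in hypoxia libraries and 2.89 ± 0.220 TPM in normal-pressure libraries (SD, n = 3 each). Its groups did not overlap, but it did not pass (limma adjusted p = 0.0897). After median-ratio scaling Cidea was called lower (limma adjusted p = 0.0104), as were all 6 adipocyte markers tested, against 18.3% of all features. Elovl3 was at or under 0.03 TPM in every library, and the symbol Ucp1 had no row in the expression table. None of the 8 skeletal and cardiac muscle markers in the table passed the filter, and their summed level was 2.45 to 2.68 TPM in hypoxia libraries and 2.75 to 4.56 TPM in normal-pressure libraries. Oocyte markers were higher for 13 of 13 tested (16 listed) and erythroid markers for 5 of 5 tested (8 listed). Granulosa markers were higher for 4 of 12 and lower for 2. Theca and interstitial markers were higher for 4 of 7 and lower for 1. Smooth muscle markers were lower for 3 of 7. Oviduct markers were lower for 1 of 6, Ovgp1, which averaged 294 TPM in hypoxia libraries and 585 TPM in normal-pressure libraries (limma adjusted p = 0.00478). The other genes of the oviduct list, those of cilia, did not pass. Of endothelial and macrophage markers, 0 of 6 and 0 of 6 passed limma in either direction, with 1 of each higher at an unadjusted p under 0.05. The part of these cell types in the result for the respiratory chain was not tested.

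Each of the 5 complexes held at least 1 member that fell. Complex I had 5 of 37 lower, complex II 1 of 4, complex III 3 of 9, complex IV 4 of 15 and complex V 1 of 17, and 0 rose in any of them. These are 13.5%, 25.0%, 33.3%, 26.7% and 5.88% of the members of complexes I to V, against 7.2% of all features. The share of complex V, 1 of 17, was near that background. All hypoxia libraries lay below all normal-pressure libraries for 51.4%, 50%, 66.7%, 40% and 35.3% of the members of complexes I to V, against 11.6% of all features. The single call in complex V, Atp5k, was lost without the filter on low values and without normal-pressure replicate 3. Median log2 fold changes lay close together, at -0.22 for complex I, -0.20 for complex II, -0.23 for complex III, -0.27 for complex IV and -0.18 for complex V. After median-ratio scaling the same complexes had 31, 4, 7, 11 and 15 members lower, against 18.3% of all features. As a share of the members' summed TPM, complex IV held 25.0%, 25.5% and 24.8% in hypoxia libraries and 26.1%, 25.7% and 26.0% in normal-pressure libraries. Complex V held 33.3%, 33.2% and 33.4% in hypoxia libraries and 32.7%, 32.8% and 32.2% in normal-pressure libraries. Both shares were separated between the groups by small margins, complex IV lower and complex V higher in hypoxia libraries, while the shares of complexes I, II and III overlapped. No test was made between complexes.

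**Figure D2:**
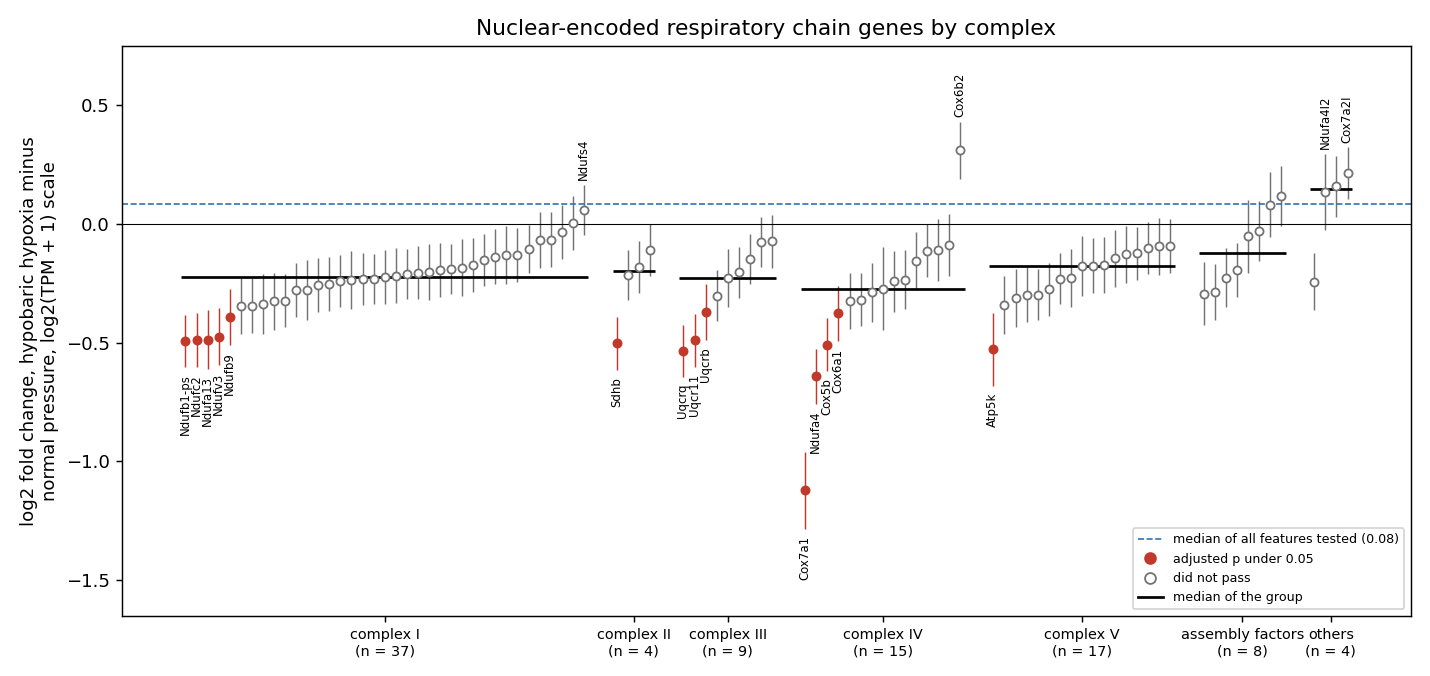
Log2 fold change (hypobaric hypoxia minus normal pressure, on log2(TPM + 1)) of each of the 94 members by complex, with filled points for those that passed limma, thin lines for the limma SE and a bar for the median of each complex. Medians lie between -0.27 and -0.18 for complexes I to V, and Cox7a1 of complex IV stands lowest at -1.12.

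Complex IV, cytochrome c oxidase, held the member with the lowest fold change. Cox7a1, the isoform of subunit 7a typical of heart, skeletal muscle and brown fat, had 5.57, 6.71 and 10.4 TPM in hypoxia libraries and 16.1, 17.1 and 18.2 TPM in normal-pressure libraries. Every hypoxia library lay below every normal-pressure library, and hypoxia replicate 3 was the highest of its group. Its mean was 7.57 ± 2.54 TPM in hypoxia libraries and 17.1 ± 1.05 TPM in normal-pressure libraries (SD, n = 3 each), a log2 fold change of -1.12 (SE 0.16, limma adjusted p = 0.000207). The isoform of other tissues, Cox7a2, had 108, 100.2 and 92.6 TPM in hypoxia libraries and 110.2, 98.2 and 117 TPM in normal-pressure libraries, with overlapping groups (log2 fold change -0.11, SE 0.11, limma adjusted p = 0.523). In GRCm38.p6 coordinates Cox7a1 lies at chr7:30184171-30186030.

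Ndufa4, once counted with complex I and now known as a complex IV subunit, had 132, 144 and 131 TPM in hypoxia libraries and 213, 189 and 235 TPM in normal-pressure libraries. The groups stood well apart, and the log2 fold change was -0.64 (SE 0.12, limma adjusted p = 0.00131). Cox5b, a subunit on the matrix side of the enzyme, had 119.6, 128 and 130.1 TPM in hypoxia libraries and 194, 161 and 185 TPM in normal-pressure libraries (log2 fold change -0.51, SE 0.11, limma adjusted p = 0.00538). Cox6a1, the non-muscle isoform of subunit 6a, had 250.3, 239 and 265 TPM in hypoxia libraries and 343, 292 and 347 TPM in normal-pressure libraries (log2 fold change -0.38, SE 0.12, limma adjusted p = 0.0361). In both genes the groups did not overlap, and normal-pressure replicate 2 was the lowest of its group.

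The other complex IV members did not pass. Cox7c, the most abundant of all members, averaged 463 ± 45.1 TPM in hypoxia libraries and 500.4 ± 55.4 TPM in normal-pressure libraries (SD, n = 3 each). Cox4i1, the common isoform of subunit 4, averaged 398 ± 6.09 TPM in hypoxia libraries and 445 ± 48.9 TPM in normal-pressure libraries. Cox6b2, the testis isoform of subunit 6b, was the 1 complex IV member above 0, with 11.2, 12.8 and 12.7 TPM in hypoxia libraries and 8.67, 9.55 and 10.9 TPM in normal-pressure libraries. Its groups did not overlap but the test was not passed (log2 fold change 0.31, SE 0.12, limma adjusted p = 0.0814).

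The windows around the transcription starts of the subunit 7a family and of 3 other members are shown, since the values of these isoforms are set side by side here and the others fell in these libraries. Each window runs from 250 bases before to 50 bases after the start, from RefSeq on GRCm38.p6, written 5′ to 3′ on the gene's strand. Capitals mark matches, on either strand, to GCGCA, any base and GCGC in a row (the nuclear respiratory factor 1 motif), CCGGAAGT (ETS family), AAGATGGCG (YY1), TCAAGGTCA (estrogen-related receptors) or ACGTG (the core of the hypoxia response element).
Cox7a1, chr7:30183921-30184220, plus strand: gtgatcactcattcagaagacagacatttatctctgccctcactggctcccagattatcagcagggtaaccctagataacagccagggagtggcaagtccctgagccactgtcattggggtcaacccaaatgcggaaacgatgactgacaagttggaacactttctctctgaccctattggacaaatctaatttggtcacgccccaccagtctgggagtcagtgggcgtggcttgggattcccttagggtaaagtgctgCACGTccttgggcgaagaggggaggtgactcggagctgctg
Cox7a2, chr9:79759804-79760103, minus strand: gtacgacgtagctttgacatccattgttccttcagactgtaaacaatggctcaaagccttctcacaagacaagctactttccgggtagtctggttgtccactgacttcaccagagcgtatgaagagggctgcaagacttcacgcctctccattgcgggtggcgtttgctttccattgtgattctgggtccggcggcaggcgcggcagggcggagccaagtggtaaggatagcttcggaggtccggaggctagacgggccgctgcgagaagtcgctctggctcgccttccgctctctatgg
Cox7a2l, chr17:83514284-83514583, minus strand: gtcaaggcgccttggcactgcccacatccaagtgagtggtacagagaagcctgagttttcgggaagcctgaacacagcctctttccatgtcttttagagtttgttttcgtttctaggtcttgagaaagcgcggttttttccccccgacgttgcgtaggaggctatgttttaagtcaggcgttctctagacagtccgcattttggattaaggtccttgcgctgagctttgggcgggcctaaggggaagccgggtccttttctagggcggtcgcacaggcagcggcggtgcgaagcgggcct
Ndufa4, chr6:11907401-11907700, minus strand: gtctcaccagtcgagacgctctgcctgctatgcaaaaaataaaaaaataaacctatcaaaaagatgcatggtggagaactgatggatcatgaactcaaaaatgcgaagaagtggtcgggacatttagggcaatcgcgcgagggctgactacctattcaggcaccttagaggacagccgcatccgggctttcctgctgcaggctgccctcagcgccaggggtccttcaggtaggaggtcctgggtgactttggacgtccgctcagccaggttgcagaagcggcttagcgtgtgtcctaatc
Cox6a1, chr5:115348909-115349208, minus strand: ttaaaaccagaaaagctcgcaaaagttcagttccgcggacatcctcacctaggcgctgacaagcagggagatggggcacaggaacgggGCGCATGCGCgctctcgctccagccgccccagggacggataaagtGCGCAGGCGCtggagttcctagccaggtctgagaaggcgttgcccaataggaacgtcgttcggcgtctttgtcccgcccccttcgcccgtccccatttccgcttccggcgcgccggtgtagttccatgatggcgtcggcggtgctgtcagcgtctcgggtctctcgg
Uqcr11, chr10:80406772-80407071, minus strand: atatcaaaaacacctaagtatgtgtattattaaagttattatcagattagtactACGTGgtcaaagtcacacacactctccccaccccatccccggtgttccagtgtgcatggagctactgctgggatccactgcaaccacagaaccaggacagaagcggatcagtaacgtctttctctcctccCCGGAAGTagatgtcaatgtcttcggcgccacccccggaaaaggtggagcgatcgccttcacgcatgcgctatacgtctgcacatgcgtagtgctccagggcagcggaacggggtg
The Cox7a1 window held 1 hypoxia core just after the start, and those of Cox7a2, Cox7a2l and Ndufa4 held no match to any of the 5 letter strings. Cox6a1 held a pair of nuclear respiratory factor 1 matches, and Uqcr11 held 1 hypoxia core and 1 ETS match.

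Of the 94 members, 76 had such a window in the RefSeq table. Nuclear respiratory factor 1, a transcription factor named for its sites in these genes, matched in 19 of the 76 (25.0%), against 10.7% of 11022 protein-coding genes that passed the filter. The YY1 string was present in 10.5% of members, against 3.23% of those protein-coding genes, and the receptor string in 2.63%, against 0.336%. The ETS string was found in 6.58%, against 8.53%, and the hypoxia core in 25.0%, against 28.2%. Among members that fell, 2 of the 10 with a window held the nuclear respiratory factor 1 string, and among those that did not pass 17 of 66 did. A match is a string of letters and not a site shown to be bound.

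Complex II, succinate dehydrogenase, is encoded by 4 nuclear genes. Sdhb, its iron-sulfur subunit, had 59.8, 56.9 and 56.4 TPM in hypoxia libraries and 92.2, 74.6 and 80.7 TPM in normal-pressure libraries. The groups did not overlap, with a log2 fold change of -0.50 (SE 0.11, limma adjusted p = 0.00504). Its catalytic partner Sdha, which binds the flavin and succinate, had 101, 98.3 and 99.5 TPM in hypoxia libraries and 113, 95.0 and 116 TPM in normal-pressure libraries, and did not pass (log2 fold change -0.11, SE 0.11, limma adjusted p = 0.525). The Sdha groups overlapped through normal-pressure replicate 2. The membrane anchors Sdhc (log2 fold change -0.21, limma adjusted p = 0.168) and Sdhd (log2 fold change -0.18, limma adjusted p = 0.27) did not pass either.

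Complex III, which carries electrons to cytochrome c, had 3 of 9 members lower, all of them small subunits without redox groups. Uqcrq had 31.0, 29.4 and 28.6 TPM in hypoxia libraries and 47.5, 38.8 and 44.2 TPM in normal-pressure libraries (log2 fold change -0.53, SE 0.11, limma adjusted p = 0.00332). Uqcr11 had 160.4, 163 and 169 TPM in hypoxia libraries and 239, 209.5 and 245 TPM in normal-pressure libraries (log2 fold change -0.49, SE 0.11, limma adjusted p = 0.00653). Neither gene had overlapping groups, and the 3 hypoxia values lay close together in each. Uqcrb had 65.5, 69.9 and 63.3 TPM in hypoxia libraries and 92.6, 73.1 and 93.5 TPM in normal-pressure libraries (log2 fold change -0.37, SE 0.12, limma adjusted p = 0.0385). The groups of Uqcrb were separated by a small gap, at normal-pressure replicate 2.

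The redox subunits of complex III did not pass. Uqcrfs1, the Rieske iron-sulfur protein, had 53.3, 50.0 and 47.6 TPM in hypoxia libraries and 63.8, 56.3 and 66.8 TPM in normal-pressure libraries (log2 fold change -0.30, limma adjusted p = 0.0665). Cyc1, cytochrome c1, had 62.5, 61.9 and 61.6 TPM in hypoxia libraries and 76.3, 65.5 and 73.3 TPM in normal-pressure libraries (log2 fold change -0.20, limma adjusted p = 0.195). In both, every hypoxia library lay below every normal-pressure library. Uqcrh, the hinge protein, was nearest to 0 in the complex (log2 fold change -0.07, limma adjusted p = 0.69), and Cycs, the cytochrome c of body tissues, had 13.8, 13.4 and 11.9 TPM in hypoxia libraries and 17.4, 13.3 and 16.2 TPM in normal-pressure libraries (log2 fold change -0.24, limma adjusted p = 0.181).

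**Figure D3:**
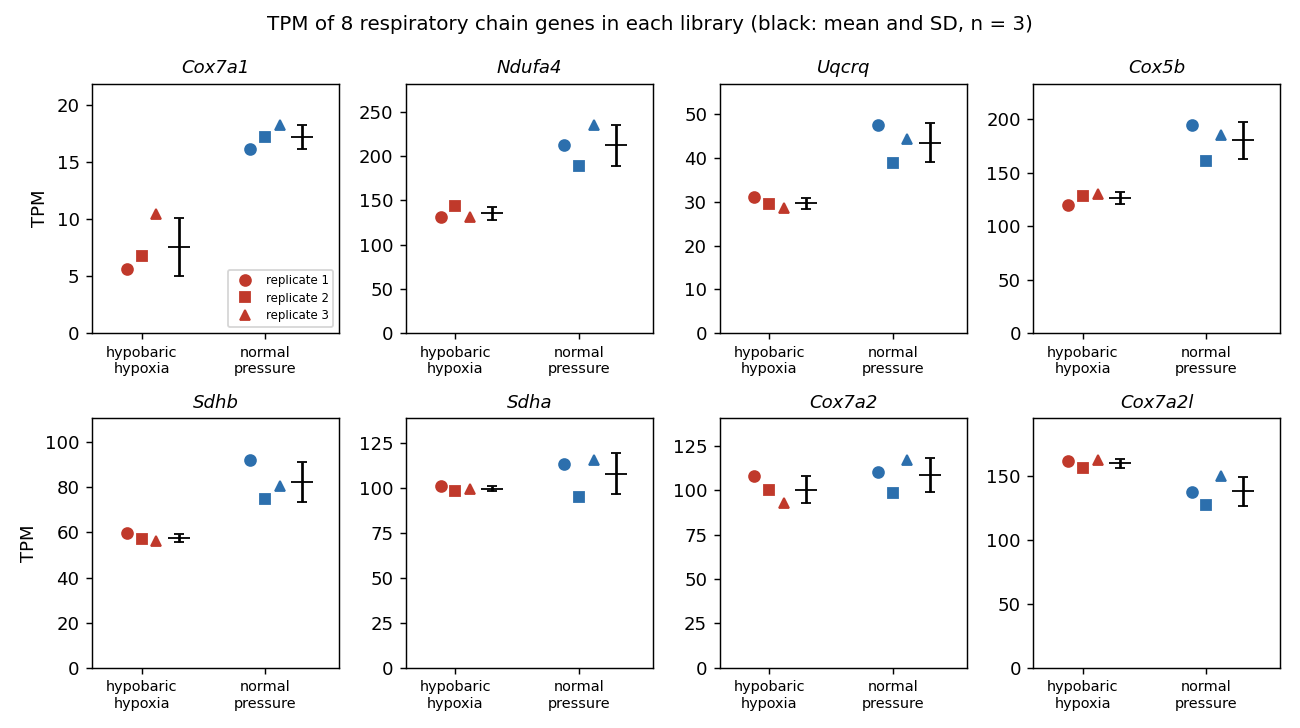
TPM in each library, with the group mean and SD (n = 3), for 8 members that carry the results: hypoxia libraries stand left and normal-pressure libraries right in every panel. The hypoxia points of Cox7a1, Ndufa4, Sdhb and Uqcrq lie below all normal-pressure points, while those of Cox7a2l lie above.

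Complex I, the NADH dehydrogenase, had falls among its accessory subunits, 5 of 30, and 0 of 7 among the core subunits that carry the flavin and the iron-sulfur clusters. Median log2 fold changes were -0.24 for accessory and -0.18 for core members. After median-ratio scaling 26 of 30 and 5 of 7 were lower, against 18.3% of all features. At an unadjusted limma p under 0.05 there were 17 accessory and 0 core members lower. Ndufc2, a membrane-arm subunit, had 88.7, 82.8 and 76.6 TPM in hypoxia libraries and 123, 104 and 123 TPM in normal-pressure libraries (log2 fold change -0.49, SE 0.11, limma adjusted p = 0.00737). Ndufb1-ps, the mouse gene of the membrane-arm subunit B1, had 45.0, 46.2 and 47.7 TPM in hypoxia libraries and 72.5, 58.4 and 66.3 TPM in normal-pressure libraries (log2 fold change -0.49, SE 0.11, limma adjusted p = 0.00586). The groups of both genes were separated by more than the range of the hypoxia values.

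Ndufa13, also known as GRIM-19, had 26.8, 28.6 and 30.8 TPM in hypoxia libraries and 47.7, 34.3 and 41.0 TPM in normal-pressure libraries (log2 fold change -0.49, limma adjusted p = 0.0125). Ndufv3, bound to the module that oxidises NADH, had 65.5, 56.5 and 64.3 TPM in hypoxia libraries and 92.5, 74.0 and 94.6 TPM in normal-pressure libraries (log2 fold change -0.48, limma adjusted p = 0.0117). Ndufb9 of the membrane arm had 79.8, 78.4 and 71.4 TPM in hypoxia libraries and 109, 86.2 and 108 TPM in normal-pressure libraries (log2 fold change -0.39, limma adjusted p = 0.0304). Normal-pressure replicate 2 was the lowest of its group in all 3 genes, yet above every hypoxia library. Ndufa3, the most abundant complex I member, averaged 212 ± 7.92 TPM in hypoxia libraries and 271 ± 28.6 TPM in normal-pressure libraries (SD, n = 3 each) and did not pass (limma adjusted p = 0.0507).

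Among core subunits of complex I, log2 fold changes were -0.18 for Ndufs1, -0.21 for Ndufs3, -0.22 for Ndufs8, -0.11 for Ndufv1 and -0.14 for Ndufv2, none of which passed. Ndufs7, which holds the last iron-sulfur cluster before ubiquinone, was at 0.01 (limma adjusted p = 0.981). Ndufs4, an accessory subunit whose loss causes Leigh syndrome in people, had 50.9, 51.0 and 49.5 TPM in hypoxia libraries and 52.6, 43.7 and 49.3 TPM in normal-pressure libraries, with interleaved groups (log2 fold change 0.06, limma adjusted p = 0.741). The 8 Nduf assembly factors, which build the complex and are not part of it, had 0 lower, a median log2 fold change of -0.12 and 6 of 8 values below 0, with 2 lower at an unadjusted limma p under 0.05. Reads of Ndufb4, Ndufb4b and Ndufb4c, near-identical copies, could be divided unevenly between them by the counting, and the same holds for members with processed pseudogenes.

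Complex V, the ATP synthase, had all 17 members below 0 and 1 that fell. Atp5k, subunit e, which helps ATP synthase form dimers, had 35.6, 45.5 and 41.2 TPM in hypoxia libraries and 70.0, 44.0 and 66.5 TPM in normal-pressure libraries (log2 fold change -0.53, SE 0.15, limma adjusted p = 0.0252). Its groups overlapped, because normal-pressure replicate 2 lay among the hypoxia libraries. Of the catalytic pair, Atp5a1 averaged 235 ± 5.86 TPM in hypoxia libraries and 267 ± 28.3 TPM in normal-pressure libraries, and Atp5b averaged 414 ± 23.3 TPM in hypoxia libraries and 453 ± 27.5 TPM in normal-pressure libraries (SD, n = 3 each). Neither passed (limma adjusted p = 0.319 and 0.486). Subunit c of the rotor ring is made from 3 genes with the same mature protein, Atp5g1 (log2 fold change -0.30), Atp5g2 (log2 fold change -0.09) and Atp5g3 (log2 fold change -0.23), and none passed.

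**Figure D4:**
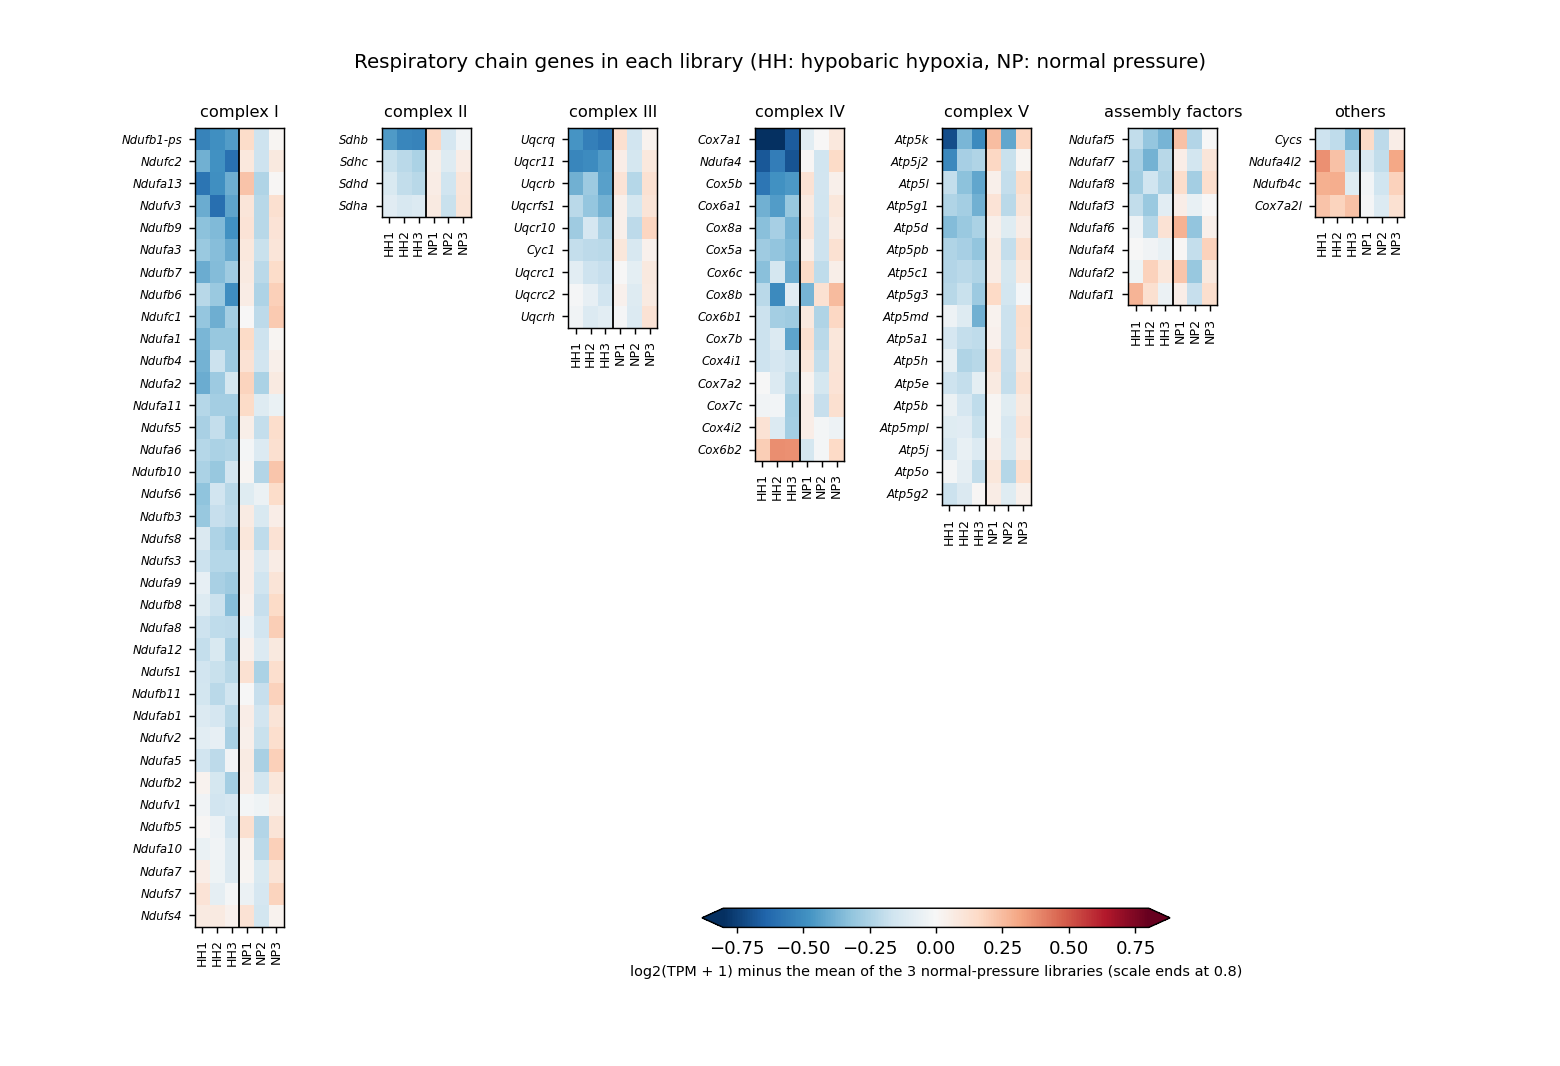
Members' log2(TPM + 1) in each library minus the mean of the same gene over the 3 normal-pressure libraries, with members grouped by complex, hypoxia libraries HH1 to HH3 on the left and normal-pressure libraries NP1 to NP3 on the right, and a colour scale that ends at 0.8. Most members are below that mean (blue) in all 3 hypoxia libraries, with Cox7a1 and Ndufa4 among the darkest, and normal-pressure replicate 2 is below it for most members too.

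To set members against each other, each library was shifted to the same mean over the 94 members, an alternative chosen after seeing the data. In that fit 15 members lay below and 15 above the members' own mean, and the shift put 5.11% of all features lower and 63.1% higher, with a median of 0.30. The shift adds the same amount to every fold change. The order of members and the sign of the 14 that fell with the deposited TPM were therefore fixed in advance. Of these 14, 13 also passed below the members' mean, Atp5k being the exception, which is no separate evidence for their fall. Cox7a1 was furthest below on this relative log2 scale, at -0.90 (limma adjusted p = 0.0064), and Ndufa4 was at -0.42 (SE 0.05, limma adjusted p = 0.000492). Within complex II the relative difference was -0.28 for Sdhb (limma adjusted p = 0.00549) and 0.11 for Sdha (limma adjusted p = 0.027).

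Above the members' mean, Cox7a2l, which joins complexes III and IV into supercomplexes and is encoded in a shortened form in C57BL/6J mice, had 162, 156 and 163 TPM in hypoxia libraries and 137, 127 and 149.8 TPM in normal-pressure libraries. All hypoxia values were higher than all normal-pressure values. Its difference did not pass with the deposited TPM (log2 fold change 0.21, SE 0.11, limma adjusted p = 0.189), but relative to the members' mean it was 0.44 (SE 0.05, limma adjusted p = 0.000331). It was also called higher after quantile normalization and both protein-coding scalings, though not after median-ratio scaling. Cox6b2 lay at 0.53 (limma adjusted p = 0.00331) and Ndufs4 at 0.28 (limma adjusted p = 0.00133) on the relative scale. The complex I assembly factors Ndufaf1 (0.34), Ndufaf2 (0.30) and Ndufaf4 (0.19) were above the mean too. On that scale 63.1% of all features were called higher, with a median of 0.30, so these calls hold against the members' mean alone. Ndufs4, Ndufaf2 and Ndufaf4 lay at or under that median. None of the genes named in this paragraph passed with the deposited TPM.

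Ratios of paralogous subunits within a library do not depend on scaling. With 3 against 3 libraries, the smallest p an exact permutation test can give is 0.1, so none of 7 ratios could pass. Cox7a1 came to 5.16%, 6.69% and 11.3% of Cox7a2 in hypoxia libraries and 14.6%, 17.5% and 15.6% in normal-pressure libraries, so the ratio was lower in every hypoxia library (log2 difference -1.12, two-sided exact permutation p = 0.1, adjusted p = 0.233 over 7 ratios). Ndufa4l2, a paralogue of Ndufa4 known to be induced by hypoxia-inducible factor 1, came to 5.99%, 4.94% and 3.84% of Ndufa4 in hypoxia libraries and 2.53%, 2.66% and 3.21% in normal-pressure libraries (log2 difference 0.80, exact permutation p = 0.1, adjusted p = 0.233). Ndufa4l2 itself overlapped between groups, with 7.89, 7.10 and 5.03 TPM in hypoxia libraries and 5.38, 5.03 and 7.54 TPM in normal-pressure libraries.

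Cox6b2 came to 3.11%, 3.83% and 3.82% of Cox6b1 in hypoxia libraries and 2.03%, 2.79% and 2.40% in normal-pressure libraries (log2 difference 0.58, exact permutation p = 0.1, adjusted p = 0.233). Cox4i2, the subunit 4 isoform known to respond to low oxygen in lung, came to 1.24%, 1.01% and 0.902% of Cox4i1 in hypoxia libraries and 0.995%, 1.13% and 0.910% in normal-pressure libraries, which overlapped (log2 difference 0.05, exact permutation p = 0.8). The ratios of Cox8b to Cox8a, Atp5g1 to Atp5g3 and Atp5g2 to Atp5g3 also overlapped (log2 differences -0.14, -0.07 and 0.14). A ratio of Cox7a2l to Cox7a2, added after the values were seen, was 150%, 156% and 176% in hypoxia libraries and 124%, 130% and 128% in normal-pressure libraries.

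**Figure D5:**
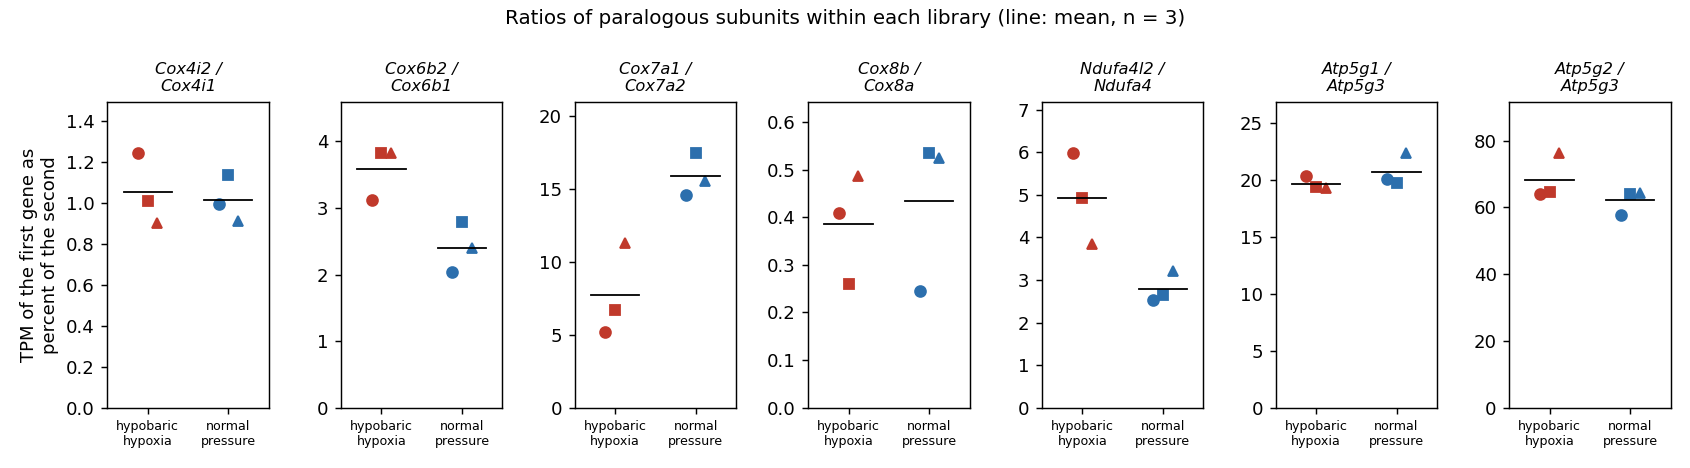
Percent that 1 paralogue's TPM makes of the other's in each library, with hypoxia libraries left of normal-pressure libraries for each pair and a line at the mean (n = 3). The groups are separated for Cox7a1 to Cox7a2, Ndufa4l2 to Ndufa4 and Cox6b2 to Cox6b1, and overlap for the other pairs.

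Among the genes that build the complexes, few passed. Of 22 complex IV assembly factors 1 fell, Cox17, the copper chaperone, with 39.0 ± 1.15 TPM in hypoxia libraries and 51.7 ± 5.23 TPM in normal-pressure libraries (SD, n = 3 each, log2 fold change -0.39, limma adjusted p = 0.0196). That is 4.55% of the list, against 7.2% of all features. At an unadjusted limma p under 0.05, 7 of the 22 were lower, and 11 were lower after median-ratio scaling (background 18.3%). The groups of 9 (40.9%) did not overlap, all in the lower direction, against 11.6% of all features. Of 4 complex II factors 1 fell, Sdhaf4 (log2 fold change -0.38, limma adjusted p = 0.0322), and of 5 complex III factors 1 fell, Uqcc3 (log2 fold change -0.46, limma adjusted p = 0.0105). These are 25% and 20% of short lists, against 7.2% of all features. The complex III factors had a median of 0.01, with 3 of 5 above 0. Among them Ttc19 was higher in every hypoxia library but did not pass (log2 fold change 0.33, limma adjusted p = 0.0707). Of the 8 complex I factors with other symbols and the 4 complex V factors, 0 passed limma in either direction, and none had an unadjusted p under 0.05.

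Transcription factors and coactivators of respiratory chain genes had 1 of 13 lower (7.69%) and 1 higher, shares near or under those of all features (7.2% lower and 11.1% higher). At an unadjusted limma p under 0.05, 1 was lower and 3 were higher, and 11 of the 13 were above 0, with a median log2 fold change of 0.10 against 0.08 for all features. Esrra, an estrogen-related receptor, averaged 7.59 ± 0.641 TPM in hypoxia libraries and 10.1 ± 0.817 TPM in normal-pressure libraries (limma adjusted p = 0.0379), while Nrf1, nuclear respiratory factor 1, averaged 39.1 ± 2.99 TPM in hypoxia libraries and 30.3 ± 4.24 TPM in normal-pressure libraries (limma adjusted p = 0.0461). Of 9 hypoxia-responsive mitochondrial genes outside the chain 1 fell, the mitophagy receptor gene Bnip3, with 23.5 ± 0.532 TPM in hypoxia libraries and 37.6 ± 2.17 TPM in normal-pressure libraries (limma adjusted p = 0.000488). That is 11.1% of the list, against 7.2% of all features, and at an unadjusted limma p under 0.05 there were 3 lower and 1 higher. Of 7 carriers and channels for ATP and its precursors 0 passed limma, with 1 lower at an unadjusted p under 0.05. Mitochondrial ribosomal protein genes had 5 of 78 lower (6.41%, against 7.2% of all features) and 0 higher, with a median log2 fold change of -0.07. At an unadjusted limma p under 0.05, 9 were lower and 0 higher, and 30 of the 78 were lower after median-ratio scaling (background 18.3% of all features). Cytosolic ribosomal protein genes had 0 of 96 lower and 1 higher by limma, with a median of 0.14. At an unadjusted p under 0.05, 0 were lower and 5 higher. In 22 (22.9%) all hypoxia libraries lay above all normal-pressure libraries, a share under the 27.6% of all features.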

How the data were processed

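RNA of whole ovaries was sequenced in 6 libraries, 3 of hypobaric hypoxia and 3 of normal pressure, grouped by the sample titles. Libraries were made with a SMARTer mRNA kit, per the labels' protocols. HISAT2, Bowtie2 and DESeq2 are listed in the submitters' processing notes with neither version nor role, beside the build GRCm38.p6. How reads were counted, with which annotation and strand setting, is not given in the sources used here. Values were deposited by the authors as TPM in 1 table. TPM divides reads by transcript length and scales every library to about the same total, so abundant features that differ between libraries move all others, and read depth is unknown. Columns of other samples numbered 0. The table used here holds no mitochondrially encoded gene, and 26 features carry dates in place of symbols and are not named.

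Features with at least 1 TPM in at least 3 libraries were kept (17120, of which 13895 are protein coding). limma 3.58.1 in R 4.3.3, with a mean-variance trend, tested log2(TPM + 1) without covariates, two-sided. Benjamini-Hochberg adjustment ran over all features kept, with calls at 0.05. Fold changes on this scale understate the change of genes with low TPM. The code was tested on simulated data. Tables were joined with Python 3.11.15 and pandas 2.3.3. Paralogue ratios were compared by exact permutation of the 6 libraries. Promoter windows and coordinates are those of RefSeq on GRCm38.p6. Named are all members called, the most abundant member and those with the extreme fold changes in each complex, the redox and catalytic core subunits, both genes of each paralogue pair and the called genes of the companion lists. The Cox7a2l to Cox7a2 ratio, Ndufs4, Ndufs7 and the assembly factors were picked out after their values were seen. One member enters the counts but is not reported here by itself. The members, gene lists and tests were chosen with earlier results of these data known. Alternatives were other scalings, pseudocounts, filters and variance models, the replicate block, and fits without 1 library.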

Additional observations from a re-analysis of the deposited data

How the results depend on the processing

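The count of members lower, 14 with 0 higher, became 8 without the filter on low values, 59 (1 higher) with quantile normalization, 73 with median-ratio scaling, 35 (2 higher) with protein-coding scaling, 23 with robust variance, 26 (1 higher) in a fit of protein-coding features alone and 67 (1 higher) with the protein-coding total without Zfp949, which was added after seeing the data. In the same settings complex I, with 5 lower, gave 2, 28, 31, 15, 10, 10 and 29, and 9 with a filter of 5 TPM. Complex II, with 1 lower, gave 3, 4, 2 and 4 under the 4 scalings in that order, with a median of -0.29 under median-ratio scaling. Complex III, with 3, gave 6 with quantile, 7 with median-ratio and 7 with the Zfp949-free scaling, and complex IV, with 4, gave 9, 11 and 11 under them. Complex V, with 1, gave 0 without the filter, 8, 15, 7 and 12 under the 4 scalings, 3 with robust variance and 5 in the protein-coding fit. Over all features, 1233 lower became 546 without the filter, 2772 with quantile, 3135 with median-ratio and 2543 with the Zfp949-free scaling, and 1906 higher became 687 without the filter, 3399 with quantile, 5509 with protein-coding and 3699 with the Zfp949-free scaling. The share of all features lower was 1.65% without the filter and 8.74% with robust variance. In the fit of protein-coding features alone it was 10.3% of those features. The Cox8b to Cox8a log2 difference turned to 0.053 with a pseudocount of 1. The cause of these shifts was not tested.

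Leaving out 1 library at a time gave 10 to 63 members lower (63 without normal-pressure replicate 2) and 0 to 1 higher, a median of -0.29 to -0.16, and 795 to 2143 features lower and 1170 to 2044 higher. Complex I had 3 to 28 lower (medians -0.30 to -0.16), complex II 1 to 4 (-0.26 to -0.16), complex III 2 to 6 (-0.33 to -0.19), complex IV 3 to 10 (-0.36 to -0.19) and complex V 0 to 11 (-0.26 to -0.13). Log2 ratio differences ranged from -0.083 to 0.15 for Cox4i2, 0.47 to 0.69 for Cox6b2, -1.43 to -0.87 for Cox7a1, -0.51 to 0.12 for Cox8b, 0.65 to 0.97 for Ndufa4l2, -0.11 to -0.02 for Atp5g1 and 0.05 to 0.18 for Atp5g2. Where 1 arm kept 2 libraries, no exact test could pass.

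Deviations of same-numbered libraries correlated at -0.03, 0.11 and -0.05. No pairing by number showed, although 3 libraries a group cannot exclude one. With the replicate block, 15 members were lower, 13 of them among the 14, and 1596 features lower and 2521 higher. For single members, 0 of 1031 values under other settings and 0 of 564 without 1 library reversed a call. With 3 libraries a group and unknown depth, small differences in scarce transcripts such as Cox8b and Cox4i2 could not be resolved.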
